A study of Mus musculus with 6 samples.

Results

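The 8 immune checkpoint genes described here, Pdcd1, Cd274, Pdcd1lg2, Ctla4, Lag3, Havcr2, Tigit and Icos, were chosen by symbol among the 52459 genes counted by RNA-Seq in 6 mouse livers, and each symbol matched 1 gene. The livers came from male C57BL6J mice of the Alb-Cre/Cas9 F1 generation, aged 8 months, in which the albumin promoter drives Cre and thereby Cas9 in hepatocytes. An AAV8 vector with a U6-driven guide RNA, given into a vein at 4 to 5 weeks of age, carried a control guide in 3 mice (sgCtrl, livers 5.1, 7.1 and 7.2) and a guide against Prdx2, which encodes the peroxide-reducing enzyme peroxiredoxin 2, in the other 3 (sgPrdx2, livers 1.1, 1.3 and 3.2). All 6 mice, controls included, received diethylnitrosamine (DEN), a liver carcinogen, at 100 mg/kg 3 weeks after the vector and, from 1 week later, a choline-deficient high-fat diet (CDAHFD) for 6 months, so that no untreated liver is part of the comparison. The guide acts in hepatocytes, whereas most of the 8 genes are known from leukocytes, and the libraries were made from whole liver.

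Checkpoint proteins set how strongly a T cell responds once its antigen receptor is engaged. PD-1, CTLA-4, LAG-3, TIM-3 and TIGIT (the products of Pdcd1, Ctla4, Lag3, Havcr2 and Tigit) are inhibitory receptors, ICOS (Icos) is a costimulatory receptor, and PD-L1 and PD-L2 (Cd274 and Pdcd1lg2) are the ligands of PD-1. Persistently stimulated T cells in chronically inflamed liver and in tumors are known to carry several inhibitory receptors at once, while macrophages, dendritic cells and sinusoidal endothelial cells are known sources of PD-L1 in liver, and TIM-3 is also found on macrophages and dendritic cells. In bulk RNA, fewer cells of a type and less RNA per cell cannot be told apart.

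In the sgPrdx2 livers, Pdcd1, Cd274, Havcr2 and Tigit were each lower than in every sgCtrl liver, by 1.68- to 2.01-fold, whereas Lag3 and Icos had nearly the same mean in both groups and Ctla4 and Pdcd1lg2 overlapped. None of the 8 passed edgeR's quasi-likelihood test at an adjusted p of 0.05, the smallest adjusted p being 0.0650 (Havcr2). At an unadjusted p of 0.05, 4 of 8 passed, all of them lower. Of the 17032 genes tested, 11.9% were lower and 13.0% higher at this p. DESeq2 called 2 of the 8 as lower, Cd274 and Havcr2, against 6.07% of the 14799 genes for which it gave an adjusted p. The same 4 genes did not overlap between the groups, against 17.5% of all tested genes that were lower without overlap, and edgeR called 1.54% of tested genes as lower. The median log2 fold change of the 8 genes was -0.62, and that of all tested genes was -0.02. Of the 8 genes 6 were estimated lower, as were 51.7% of all tested genes.

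The livers had 37462102 to 56865293 counts each, and 3 counts, taken as the smallest number detected, stood for 0.0555 to 0.0921 CPM (counts scaled to 1e+06 per library with TMM factors, the unit of all levels below). All 8 genes exceeded this in every liver and passed the filter on low counts. Prdx2 itself had 4783, 5247 and 6939 counts in the sgCtrl and 4345, 6052 and 4858 in the sgPrdx2 livers (log2 fold change 0.01, SE 0.18, adjusted p = 0.983 by edgeR), and since small insertions and deletions need not lower an mRNA, this does not check the labels. Hepatocyte markers were higher in the sgPrdx2 livers, albumin (Alb) taking 9.28% to 11.3% of counts there against 6.61% to 7.01% in the sgCtrl livers, and liver 3.2 had the lowest TMM factor (0.805). Each liver has its own number in the labels, and no batch is named. The column headers number the libraries consecutively within each group, and what these numbers stand for is not given.

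**Figure D1:**
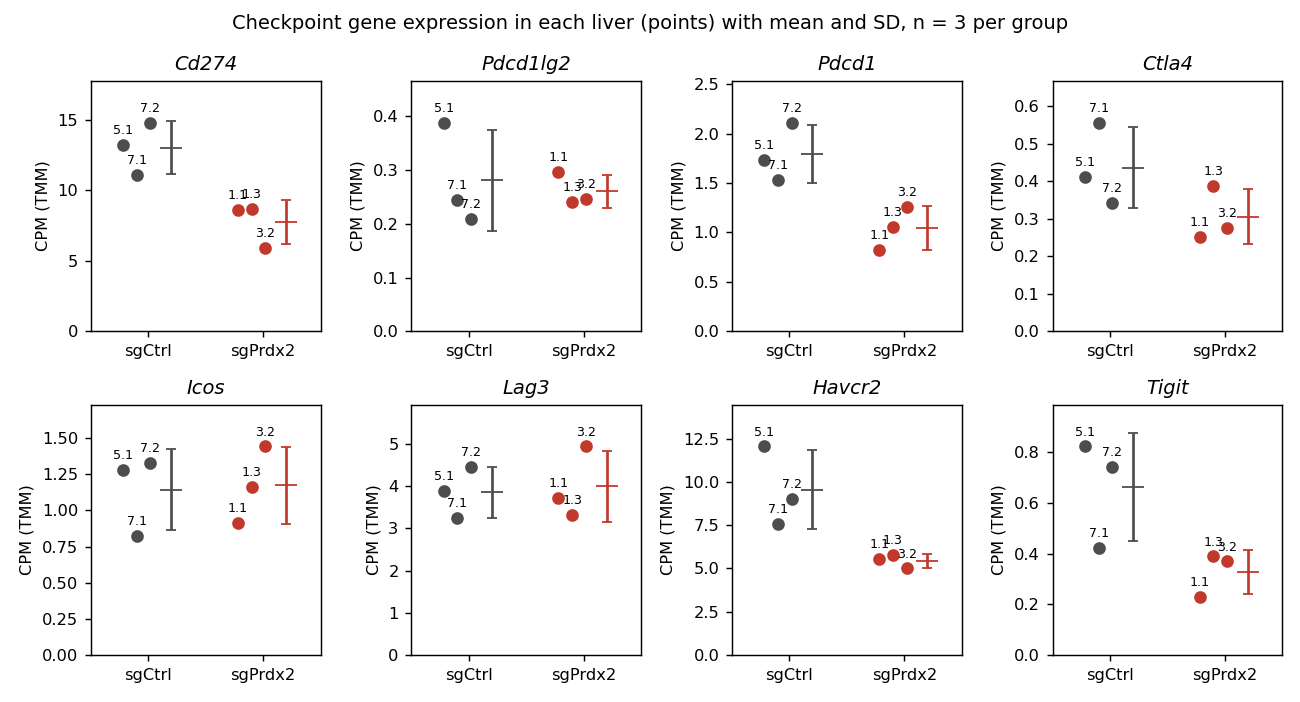
Levels of the 8 checkpoint genes (vertical axes, CPM after TMM scaling, each starting at 0) in each sgCtrl (grey) and sgPrdx2 (red) liver, labelled by liver, with the mean and SD of the 3 livers beside them. The red points of Cd274, Pdcd1, Havcr2 and Tigit all lie below the grey ones, while those of Icos, Lag3, Ctla4 and Pdcd1lg2 are mixed with them.

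The promoters shown are those of the 3 genes with the smallest p, the ligand Cd274 and the receptors Pdcd1 and Havcr2. Each is the 250 bases before the RefSeq transcription start (build GRCm38.p6), on the strand of the gene, 5′ to 3′. Capitals mark matches, on either strand, to an interferon regulatory factor motif (IRF, GAAANNGAA, in 7.13% of 32851 promoters), a STAT site (GAS, TTCNNNGAA, in 7.02%), AP-1 (TGANTCA, in 6.75%), NFAT (TGGAAAA, in 5.93%) and RUNX (TGTGGT, in 14.0%).
Cd274, chr19:29367188-29367437, plus strand: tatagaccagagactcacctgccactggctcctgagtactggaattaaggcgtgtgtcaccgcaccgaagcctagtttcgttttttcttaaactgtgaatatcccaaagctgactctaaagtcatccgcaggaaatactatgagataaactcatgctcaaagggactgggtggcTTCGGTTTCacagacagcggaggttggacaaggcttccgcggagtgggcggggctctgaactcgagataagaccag
Pdcd1, chr1:94052554-94052803, minus strand: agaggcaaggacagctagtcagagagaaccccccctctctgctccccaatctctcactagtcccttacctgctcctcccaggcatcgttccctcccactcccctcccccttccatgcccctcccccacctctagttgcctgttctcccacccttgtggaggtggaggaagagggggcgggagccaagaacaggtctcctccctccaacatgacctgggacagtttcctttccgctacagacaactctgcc
Havcr2, chr11:46454681-46454930, plus strand: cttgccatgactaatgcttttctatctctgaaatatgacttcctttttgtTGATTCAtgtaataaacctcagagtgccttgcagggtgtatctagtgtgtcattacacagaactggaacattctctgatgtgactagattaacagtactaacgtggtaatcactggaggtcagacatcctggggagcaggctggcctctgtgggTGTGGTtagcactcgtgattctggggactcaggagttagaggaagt
The Cd274 window held 1 IRF match, on the opposite strand, at positions -76 to -68 from the transcription start. The Havcr2 window held an AP-1 match at -200 to -194 and a RUNX match at -46 to -41, and the Pdcd1 window held none of the 5 motifs. Among the other entries, Ctla4 had an IRF match at -166 to -158 and an NFAT match at -145 to -139, Tigit had a RUNX match at -140 to -135, and Pdcd1lg2 had none. The Ctla4 window (chr1:60908775-60909024) lies inside the Ctla4 gene as annotated by GENCODE. The bases after the Tigit start were not found in a GENCODE transcript of Tigit. The positions for these genes thus hold for the RefSeq start only. These are matches of letters and not measured binding sites.

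Cd274 and Pdcd1lg2, which encode both ligands of PD-1, lie next to each other on the plus strand of chromosome 19 (GRCm38, chr19:29367455-29388095 and chr19:29410919-29471161). Cd274 had 579, 498 and 778 counts in sgCtrl livers 5.1, 7.1 and 7.2, and 379, 469 and 193 in sgPrdx2 livers 1.1, 1.3 and 3.2. Its level was 13.2, 11.1 and 14.8 CPM in the first group and 8.64, 8.67 and 5.93 CPM in the second, so that the highest sgPrdx2 liver stayed below the lowest sgCtrl liver and liver 3.2 was the lowest of all. The means were 13.0 ± 1.87 and 7.75 ± 1.57 CPM (SD, n = 3 each), a 1.68-fold lower level in sgPrdx2 livers (log2 fold change -0.75, SE 0.19, 95% interval -1.20 to -0.30), with an edgeR p of 0.00496 and an adjusted p of 0.0722. Counts on Cd274 carry a limit: 14.1% of its exon bases are shared with an antisense gene and 12.4% of its 50-base stretches occur in other genes, and the strandedness of the counting is not given in the sources used here.

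Pdcd1lg2 had the fewest counts of the 8 genes over the 6 livers together, with 17, 11 and 11 counts in the sgCtrl and 13, 13 and 8 in the sgPrdx2 livers. Its means of 0.281 ± 0.0948 and 0.261 ± 0.0308 CPM were indistinguishable, with a log2 fold change of -0.09 whose 95% interval ran from -0.94 to 0.75 (edgeR adjusted p = 0.890). At so few counts, a change of the size seen for Cd274 lies inside that interval. The ratio of Cd274 to Pdcd1lg2 within a liver was 34.1, 45.3 and 70.7 in the sgCtrl and 29.2, 36.1 and 24.1 in the sgPrdx2 livers, which overlap (two-sided exact permutation test, p = 0.2), so that the data do not separate the behavior of the ligands.

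Pdcd1 (chr1:94038305-94052553, minus strand) encodes the receptor PD-1. It had 76, 69 and 111 counts in the sgCtrl livers and 36, 57 and 41 in the sgPrdx2 livers, corresponding to 1.74, 1.53 and 2.11 CPM and to 0.820, 1.05 and 1.26 CPM. The groups did not overlap. The log2 fold change was -0.79 (SE 0.25, 95% interval -1.38 to -0.20), or 1.73-fold lower, with an unadjusted p of 0.0150 and an adjusted p of 0.117 by edgeR. The unadjusted p exceeded 0.05 when sgCtrl liver 7.2 (the highest) or sgPrdx2 liver 1.1 (the lowest) was left out.

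Ctla4 and Icos, receptors of the CD28 family that inhibit and costimulate respectively, are neighbors on chromosome 1 (chr1:60887000-60915832 and chr1:60977927-61000320, both plus strand). Ctla4 had 18, 25 and 18 counts in the sgCtrl and 11, 21 and 9 in the sgPrdx2 livers, with means of 0.437 ± 0.109 and 0.305 ± 0.0732 CPM. Liver 1.3 of the sgPrdx2 group lay above liver 7.2 of the sgCtrl group, and the log2 fold change of -0.49 (95% interval -1.28 to 0.30) had an edgeR adjusted p of 0.403. Icos had 56, 37 and 70 counts against 40, 63 and 47, or 1.28, 0.823 and 1.33 CPM against 0.911, 1.16 and 1.44 CPM. Both its highest liver (3.2) and its second lowest (1.1) were in the sgPrdx2 group, and its log2 fold change was 0.03 (SE 0.29, 95% interval -0.65 to 0.70, adjusted p = 0.963). The ratio of Ctla4 to Icos within a liver overlapped between the groups (0.418 ± 0.225 and 0.267 ± 0.0713, exact permutation p = 0.5).

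Lag3 (chr6:124904361-124911705, minus strand), whose product binds MHC class II, had 170, 146 and 234 counts in the sgCtrl and 163, 180 and 161 in the sgPrdx2 livers. Its level was 3.88, 3.25 and 4.45 CPM in the sgCtrl livers and 3.71, 3.33 and 4.94 CPM in the sgPrdx2 livers, the groups covering the same range. The log2 fold change was 0.04 with an SE of 0.22 (95% interval -0.46 to 0.54, adjusted p = 0.914 by edgeR). The changes estimated for Cd274, Pdcd1, Havcr2 and Tigit lie outside this interval. Their own 95% intervals overlap it, so that this does not show a difference between the genes.

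Havcr2 (chr11:46454935-46481255, plus strand) encodes TIM-3 and had the smallest p of the 8. It had 528, 341 and 475 counts in the sgCtrl and 243, 313 and 163 in the sgPrdx2 livers. Its level was 12.1, 7.58 and 9.04 CPM in the sgCtrl livers and 5.54, 5.79 and 5.01 CPM in the sgPrdx2 livers, the second group lying within a narrow range below the first. The means of 9.56 ± 2.28 and 5.44 ± 0.399 CPM differed 1.75-fold (log2 fold change -0.81, SE 0.20, 95% interval -1.27 to -0.35), with an unadjusted p of 0.00354 and an adjusted p of 0.0650 by edgeR.

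Tigit (chr16:43648867-43664146, minus strand), a receptor for poliovirus receptor (Pvr) and nectins, showed the largest estimated difference of the 8 genes on few counts. It had 36, 19 and 39 counts in the sgCtrl and 10, 21 and 12 in the sgPrdx2 livers, and 0.822, 0.423 and 0.742 CPM against 0.228, 0.388 and 0.369 CPM. The groups did not overlap, although sgCtrl liver 7.1 and sgPrdx2 liver 1.3 were close. The log2 fold change was -1.01 (SE 0.37, 95% interval -1.86 to -0.15), with an unadjusted p of 0.0263 and an adjusted p of 0.150 by edgeR. The unadjusted p exceeded 0.05 without sgCtrl liver 5.1, sgCtrl liver 7.2 or sgPrdx2 liver 1.1.

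**Figure D2:**
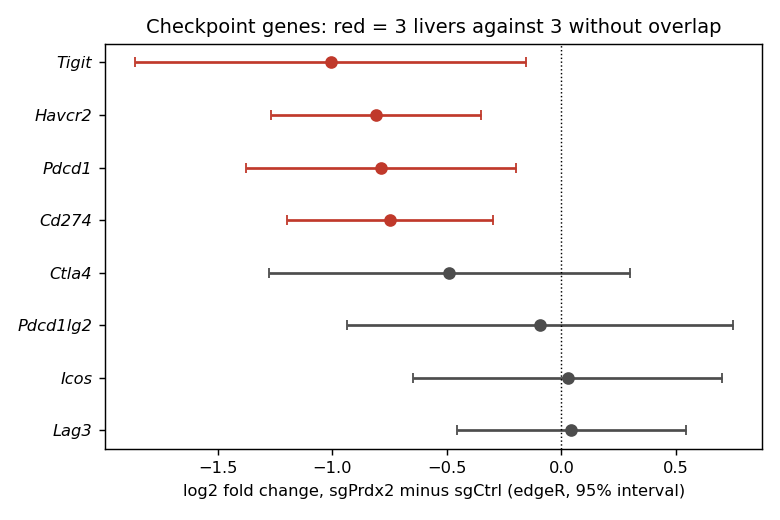
Log2 fold change of each checkpoint gene, sgPrdx2 minus sgCtrl (horizontal axis), with its 95% interval from the edgeR fit on 3 livers per group, ordered by size. The intervals of Tigit, Havcr2, Pdcd1 and Cd274 (red, no overlap between groups) lie below 0, and those of Ctla4, Pdcd1lg2, Icos and Lag3 (grey) include it.

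Since the levels of 2 genes in 1 liver share depth and scaling, their ratio does not depend on the normalization. The ratio of Pdcd1 to Lag3 was 0.447, 0.473 and 0.474 in the sgCtrl livers and 0.221, 0.317 and 0.255 in the sgPrdx2 livers. The sgCtrl livers lay close together and the sgPrdx2 livers well below them (log2 difference -0.83). The ratio of Havcr2 to Lag3 was 3.11, 2.34 and 2.03 against 1.49, 1.74 and 1.01 (log2 difference -0.83), and that of Tigit to Icos was 0.643, 0.514 and 0.557 against 0.250, 0.333 and 0.255 (log2 difference -1.04). In all 3 ratios the groups did not overlap, against 8.67% of tested genes that were lower without overlap relative to Lag3 and 7.2% relative to Icos, with an exact permutation p of 0.1, the smallest that 3 livers against 3 allow. Together with the ratios of Cd274 to Pdcd1lg2 and of Ctla4 to Icos, 5 pairs were compared, chosen after the values were seen, and no p could pass 0.05.

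Compared between genes as CPM per kilobase of annotated exon, averaged over the 6 livers, the order of levels was Cd274 (2.87 ± 0.907, SD), Havcr2 (2.76 ± 0.989), Lag3 (1.86 ± 0.313), Pdcd1 (0.735 ± 0.244), Tigit (0.539 ± 0.254), Icos (0.338 ± 0.0714), Ctla4 (0.159 ± 0.0472) and Pdcd1lg2 (0.138 ± 0.0326). The ranges over livers were separate only between Lag3 and Pdcd1 and between Icos and Ctla4, and all other neighbors in this order overlapped. Cd274 ranked first in 4 livers, Havcr2 in sgCtrl liver 5.1, and Lag3 in sgPrdx2 liver 3.2, where Cd274 had rank 3. Pdcd1 had rank 4 in all 6 livers. Tigit exceeded Icos in all 3 sgCtrl livers but in 1 of the 3 sgPrdx2 livers.

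The T cell content of the libraries was read from 18 T cell markers, all of which passed the filter on low counts. Their summed level was 69.0 to 102 CPM in the sgCtrl and 66.3 to 85.3 CPM in the sgPrdx2 livers, which overlap (exact permutation p = 0.8). Of the 18, 13 were lower and 5 higher (17 lower without TMM scaling), with a median log2 fold change of -0.17. Cd8a, the CD8 coreceptor of cytotoxic T cells, fell (-0.84, adjusted p = 0.0486 by edgeR), and the kinase Zap70 was higher without overlap (1.02, adjusted p = 0.0671; named after its value was seen). No gene at all was called by edgeR when liver 5.1, 7.2, 1.1 or 1.3 was left out, which holds for each called gene named here and below. By contrast, the summed level of 7 pan-leukocyte markers was 645 to 807 CPM in the sgCtrl and 396 to 496 CPM in the sgPrdx2 livers without overlap. Of the 7, 3 fell in edgeR, the integrin chain Itgb2 (-1.06, adjusted p = 0.0313), Cd53 (-0.88, 0.0409) and Laptm5 (-0.76, 0.0491). Of all tested genes, 51.7% were estimated lower and edgeR called 1.54% as lower. The level of Ptprc, the pan-leukocyte phosphatase CD45, was 66.6 ± 6.98 and 36.3 ± 8.96 CPM. The part of these shifts in the checkpoint gene values was not tested.

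Relative to the summed T cell markers of the same liver, Pdcd1 was 1.71%, 2.23% and 2.66% in the sgCtrl and 1.24%, 1.27% and 1.48% in the sgPrdx2 livers. Havcr2 was 11.9%, 11.0% and 11.4% against 8.35%, 6.996% and 5.87%. Tigit was 0.809%, 0.613% and 0.934% against 0.344%, 0.469% and 0.432%. These 3 genes remained lower without overlap relative to the T cell markers, with log2 differences of -0.71, -0.70 and -0.91 (exact permutation p = 0.1 each, the floor), against 7.13% of all tested genes that were lower without overlap on this scale. The sum includes Zap70, itself higher in the sgPrdx2 livers (mean 5.81 CPM in sgCtrl and 11.8 CPM in sgPrdx2 livers). The ratios to this sum were not computed without Zap70, so that the separation on this scale may depend on it. Relative to Cd3d, Cd3e and Cd3g alone, a reference without Zap70, the log2 differences of the 3 genes were smaller, at -0.58, -0.58 and -0.78. On that scale too the 3 genes were lower without overlap (exact permutation p = 0.1 each, the floor). The share of all tested genes was not computed there. Cd274 overlapped between the groups (15.9 ± 2.81% and 10.2 ± 3.05%, exact permutation p = 0.2), as did Ctla4 (p = 0.4), Pdcd1lg2 (p = 1.0), Lag3 (4.71 ± 0.890% and 5.14 ± 0.973%, p = 0.5) and Icos (1.38 ± 0.262% and 1.49 ± 0.175%, p = 0.5).

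The differences depended on the reference, since the pan-leukocyte sum was itself lower in the sgPrdx2 livers (log2 ratio of means -0.72) and the T cell sum was not separate between the groups (-0.09). Relative to the summed pan-leukocyte markers, Pdcd1, Cd274 and Havcr2 overlapped with log2 differences of -0.07, -0.04 and -0.07, and Tigit with one of -0.27. On this scale Lag3 was 0.481%, 0.504% and 0.611% in the sgCtrl and 0.937%, 0.774% and 0.996% in the sgPrdx2 livers, and Icos was 0.159%, 0.128% and 0.183% against 0.230%, 0.271% and 0.291%. Both were higher in the sgPrdx2 livers without overlap (log2 differences 0.76 and 0.76), as was Pdcd1lg2 (0.66), each with an exact permutation p of 0.1, the floor, while Ctla4 overlapped (0.21). On this scale 58.9% of all tested genes were higher without overlap, so that these 3 of 8 are no result about the checkpoint genes and carry the shift of the reference. With Ptprc alone as the reference, Icos was higher without overlap (0.94), as were 73.5% of all tested genes, and the other 7 genes overlapped, with log2 differences of 0.11 for Pdcd1, 0.14 for Cd274, 0.11 for Havcr2, -0.09 for Tigit, 0.39 for Ctla4, 0.84 for Pdcd1lg2 and 0.94 for Lag3. Pdcd1, Havcr2 and Tigit were thus lower relative to the summed T cell markers, Zap70 included, and their groups overlapped relative to the pan-leukocyte markers.

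**Figure D3:**
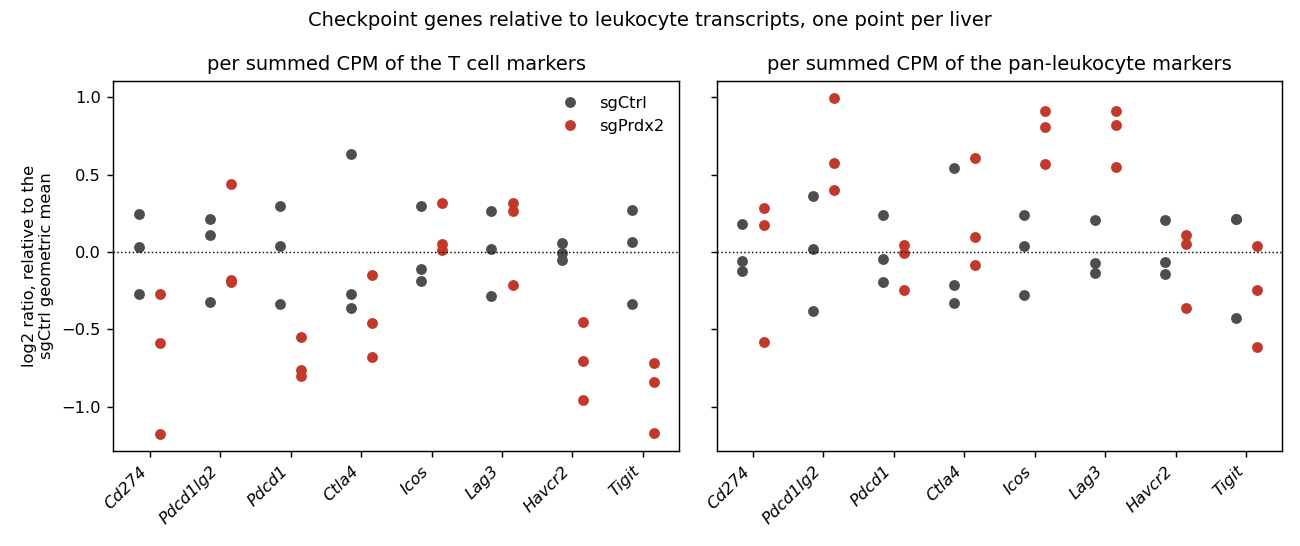
Log2 ratio of each checkpoint gene to the summed CPM of 18 T cell markers (left) or 7 pan-leukocyte markers (right) in each liver, relative to the geometric mean of the sgCtrl livers (dotted line at 0). On the left the sgPrdx2 points (red) of Pdcd1, Havcr2 and Tigit lie below all sgCtrl points (grey), and on the right those of Pdcd1lg2, Icos and Lag3 lie above them, as do 58.9% of all tested genes on that scale.

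The ligands of these receptors did not move in 1 direction. Of 11 tested, 5 were lower and 6 higher, none passed the adjusted threshold in edgeR (6 had an unadjusted p under 0.05), and their median log2 fold change was 0.12, while 9 of the 11 were lower without TMM scaling. Cd80 and Cd86, which bind CD28 and CTLA-4, were lower without overlap at 1.44 against 0.783 CPM and 11.7 against 8.05 CPM (-0.87 and -0.54, edgeR adjusted p = 0.0748 and 0.0790). Pvr, a ligand of TIGIT, was also lower without overlap (-0.46, adjusted p = 0.119). Of all tested genes, 17.5% were lower without overlap and 11.9% were lower at an unadjusted p of 0.05. The LAG-3 ligand Fgl1, a protein secreted by hepatocytes, was higher without overlap at 219.8 against 313 CPM (0.51, adjusted p = 0.0878), as was Nectin3 (0.56, 0.0926), against 16.7% of all tested genes higher without overlap and 13.0% higher at an unadjusted p of 0.05. Fgl1, Nectin3 and Pvr were named after their values were seen.

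Of 20 tested genes among 24 other co-signalling genes, 18 were lower and 2 higher, with a median of -0.46. The inhibitory receptor Cd200r1 fell (-0.99, adjusted p = 0.0466 by edgeR), as did Vsir, which encodes the inhibitory checkpoint VISTA (-0.76, adjusted p = 0.0448). Without overlap, 8 of the 20 were lower. Among all tested genes, 51.7% were estimated lower, 17.5% were lower without overlap and edgeR called 1.54% as lower. Of 17 regulators of T cell activation and exhaustion, 16 were estimated lower (median -0.39). In edgeR 1 fell, the ectonucleotidase Entpd1 (CD39, -0.75, adjusted p = 0.0394). Without overlap, 5 of the 17 were lower, and 5 had an unadjusted p under 0.05 in edgeR, all lower. The shares of all tested genes were 17.5% lower without overlap and 11.9% lower at that p. Tox (-0.03), Tox2 (-0.09) and Tcf7 (-0.10), named after their values were seen, overlapped between the groups. The cells in which these regulators were expressed were not tested. Of 5 regulatory T cell markers tested, all 5 were estimated lower and none passed the test in edgeR or at an unadjusted p of 0.05, with log2 fold changes of -0.28 for Lrrc32 and -0.29 for Il2ra, and of -0.03 for the lineage factor Foxp3 (named after its value was seen). Il10 did not pass the filter.

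For the interferon gamma pathway, known to induce PD-L1, 15 of 18 genes were lower and 3 higher (median -0.31). Of all tested genes, 51.7% were estimated lower. None of the 18 passed the adjusted threshold in edgeR and 4 had an unadjusted p under 0.05, all lower. Among all tested genes, 11.9% were lower and 13.0% higher at this p. Without overlap, 6 of the 18 were lower, against 17.5% of all tested genes. The summed level of the 18 was 783 to 918 CPM in the sgCtrl and 728 to 765 CPM in the sgPrdx2 livers, without overlap. The log2 fold changes were -0.47 for the receptor chain Ifngr1 (adjusted p = 0.0804) and -0.96 for the guanylate-binding protein Gbp3 (adjusted p = 0.124). Ifng itself did not pass the filter. Among 12 tested cytotoxic and NK cell markers, 11 were lower (median -0.36), none was separate between the groups and none passed the adjusted threshold in edgeR (1 did at an unadjusted p of 0.05), with log2 fold changes of -1.06 for perforin (Prf1) and -0.85 for Gzmk. Their summed level was 31.6 to 51.6 CPM in the sgCtrl and 31.7 to 47.5 CPM in the sgPrdx2 livers.

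Macrophages are a known source of both Cd274 and Havcr2, and the sum of their markers was lower in the sgPrdx2 livers. All 14 macrophage and monocyte markers were estimated lower (median -0.51). In edgeR 3 of them passed the adjusted threshold, the glycoprotein Gpnmb (-1.08, adjusted p = 0.0373), the integrin chain Itgam (-1.24, 0.0394) and the perforin-like Mpeg1 (-0.82, 0.0394). Of the 14, 6 were lower without overlap. The others overlapped, among them Timd4 (-0.02), Clec4f (-0.33) and Cd68 (-0.69), named after their values were seen. The summed level of the 14 was 4176 to 4870 CPM in the sgCtrl and 2798 to 3593 CPM in the sgPrdx2 livers. Of 9 dendritic cell markers, 6 were lower and 3 higher (median -0.30), 1 was lower without overlap and none was called by edgeR (1 at an unadjusted p of 0.05), with -0.56 for Itgax and -0.43 for Flt3, and their sum, most of it Itgax, was 129 to 155 against 91.4 to 120.2 CPM. Of 11 endothelial and stellate markers 9 were lower (median -0.50), 5 of them without overlap. Pecam1 fell (-0.77, adjusted p = 0.0423 by edgeR), and the sum was 640 to 757 against 538 to 557 CPM. For comparison, 51.7% of all tested genes were estimated lower, 17.5% were lower without overlap and edgeR called 1.54% as lower. At an unadjusted p of 0.05, 11.9% were lower and 13.0% higher. Of 6 B cell markers 3 were lower and 3 higher (median 0.11), none called by edgeR (1 at an unadjusted p of 0.05), with 0.44 for Cd79b and a sum of 14.3 to 18.2 against 16.7 to 20.4 CPM. All 10 hepatocyte markers found in the table were higher (median 0.96), although 2 were lower without TMM scaling, and 6 passed the adjusted threshold against 1.79% of tested genes called higher, namely Ttr, Cyp2e1, Serpina1c, Apoa1, Alb and Fgb, by 0.83 to 1.35. Cd274 and Havcr2 were lower in the same livers as the summed macrophage markers, and the part of those cells in their levels was not tested.

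**Figure D4:**
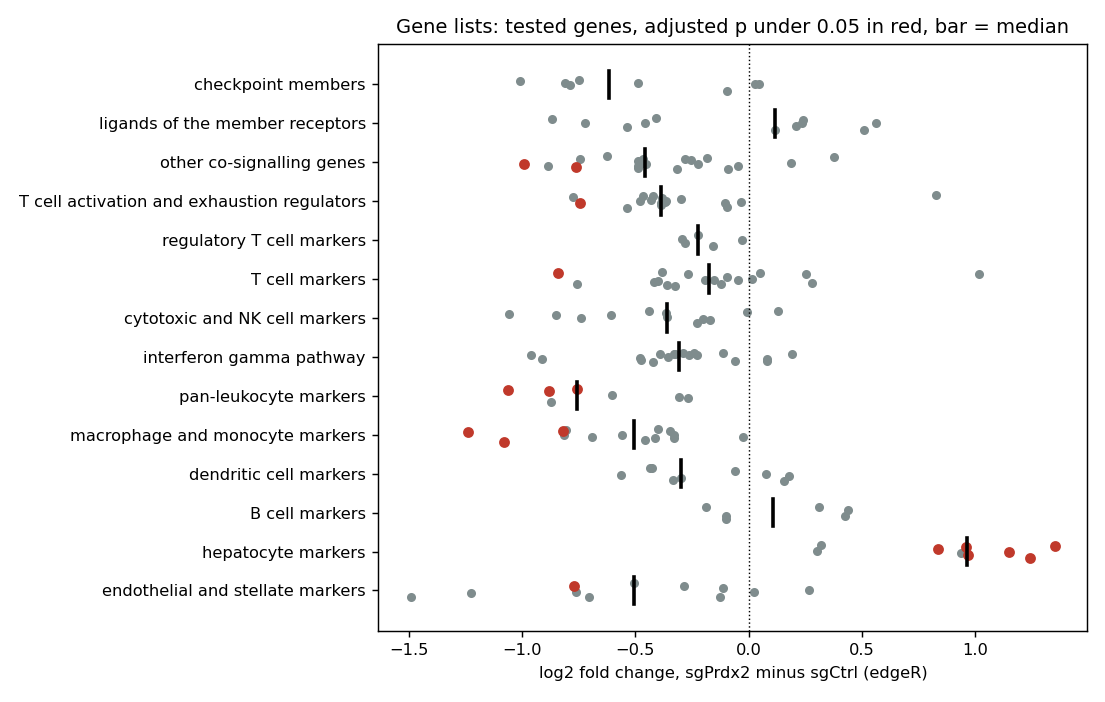
Log2 fold change (horizontal axis, edgeR, sgPrdx2 minus sgCtrl) of every tested gene of each list, with called genes (adjusted p under 0.05) in red and the list median as a black bar. The checkpoint genes (top row, median -0.62) lie mostly left of 0, as do the macrophage and pan-leukocyte markers, and the hepatocyte markers lie to the right.

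The tested genes whose profiles over the 6 livers were nearest to each checkpoint gene were found by the root mean square (RMS) difference of centred log2 CPM. They were Slamf8 (0.0480) and Tnfrsf12a (0.0664) for Pdcd1, Nck2 (0.0797) and Gprc5b (0.0810) for Cd274, Ifi203 (0.0551) and Gm20559 (0.0667) for Havcr2, and Tubb3 (0.080) and Dusp13 (0.0958) for Tigit. Lag3 was nearest to Gm5835 (0.0275) and Ftl1 (0.0448), and Icos to Meis3 (0.0636) and Bex3 (0.0639). For the genes with the fewest counts, the nearest were Gm10226 (0.0552) and Gm29683 (0.0554) for Pdcd1lg2 and AC153955.2 (0.0710) and BC037032 (0.0906) for Ctla4. No checkpoint gene was among the 2 nearest of another. With 6 livers and 17032 genes to choose from, close profiles are found for any gene, and the likeness is given as a description.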

How the data were processed

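RNA-Seq of 3 sgCtrl and 3 sgPrdx2 livers was analysed, grouped by the sample labels. The authors deposited counts of reads per gene for 52459 genes, as whole numbers without normalization. The submitters' processing notes name HISAT2, HTSeq, DESeq2 and GRCm38, and their versions, the annotation and strandedness are not given in the sources used here. A second table, with the authors' DESeq2 mean, log2 fold changes, standard errors, Wald statistics and p-values, was not used.

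The fit used edgeR 4.0.16 under R 4.3.3 (filterByExpr with a minimum count of 10, TMM, glmQLFit and glmQLFTest), with no covariate. This left 17032 genes, with a biological coefficient of variation of 0.213. A gene was called at a p under 0.05 after Benjamini-Hochberg adjustment over all tested genes, and calls lower and higher are given with their share of all tested genes. Intervals are 95%, and the SE was taken as |log2 fold change|/√F. Single values (CPM sums, ratios) were compared by exact permutation tests (two-sided), which cannot go below a p of 0.1. At 37462102 to 56865293 counts per liver, detection floors cover counting error only.

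The 8 genes and the gene lists were chosen with earlier results of these data known. The genes named were the 8, from each list every gene with an adjusted p under 0.05 and otherwise up to 2 with the smallest p, the 2 nearest profiles of each of the 8 genes (prior count 2), Prdx2 and Alb. The value of 1 gene that this rule names is not reported here. Exons came from GENCODE M21 and promoters from RefSeq, both on GRCm38, 6 of the 8 genes having a promoter entry. The hepatocyte list holds 11 symbols, of which 10 were in the table. Alternatives were RLE, upper-quartile or total-count scaling, DESeq2 1.42.0, dropping the filter or requiring 10 counts per liver, an adjusted p under 0.1, leaving out each liver in turn, and other references for the ratios. The fits were tested on simulated data.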

Additional observations from a re-analysis of the deposited data

How the results depend on the processing

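Without TMM scaling (total counts only), the median of all genes moved from -0.02 to -0.39 on the log2 scale, 3247 genes were called in place of 567, 93.7% of them lower, and 4 of the 8 checkpoint genes were called (Pdcd1, Cd274, Havcr2 and Tigit). On that scale Lag3 was -0.34 and Icos -0.35, and relative to the median of all genes they were 0.05 and 0.04. DESeq2 called 2066 genes and 2 of the 8, Cd274 (adjusted p = 0.0116) and Havcr2 (adjusted p = 0.00644), without an adjusted p for Pdcd1lg2, Ctla4 and Tigit. Without a filter on low counts edgeR called 1128 genes and the same 2 of the 8, and at an adjusted p under 0.1 it called 1767 genes and again Cd274 and Havcr2. RLE (568 genes), upper-quartile scaling (566) and at least 10 counts in every liver (614, with 6 of the 8 tested) called none of the 8. Leaving out 1 liver, edgeR called 0 to 619 genes and 0 of the 8 throughout. It called 0 without 5.1, 7.2, 1.1 or 1.3 (3114, 3119, 3328 and 3993 genes at an unadjusted p under 0.05), 394 without 7.1 and 619 without 3.2. Cd274 and Havcr2 kept an unadjusted p under 0.05 in all 6 of these fits. Pdcd1, Cd274, Havcr2 and Tigit were lower in every fit. The sign of 3 genes turned when 1 liver was left out: Lag3 ranged from -0.12 (without 3.2) to 0.18, with -0.07 without 7.1, Icos from -0.16 (without 7.1) to 0.18, with -0.13 without 3.2, and Pdcd1lg2 from -0.27 to 0.20 (without 5.1). Causes were not tested beyond these values. No paired analysis was possible because the groups share no replicate numbers. Depth limits Pdcd1lg2, Ctla4 and Tigit most, with at most 39 counts in any liver.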
